A study of Mus musculus with 6 samples.

Results

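Among the genes measured in the retinas of mice injected with SH-42 or SH-80, 9 were chosen by the ratio of the 2 dyes on the array, which lay on the same side of 0 on every array of both compounds. After the dyes were balanced by loess, Cadm4, Lrp12, Ankrd12, Sympk and Rsrc2 were brighter in the Cy3 channel. Slc10a1, F10, Tnfrsf9 and Pde5a were brighter in the Cy5 channel. Raw signals could run the other way, as for Ankrd12 on SH-80 replicate 2 (12786 in Cy3, 15180.5 in Cy5). The 9 genes were found by the RefSeq accession of each probe, which gave 13 probes with 1 spot each out of 39429 probes. They are among 24079 genes tested. Since these ratios were used for the choice, they are given as a description and carry no test. Being on 1 side of 0 on all 6 arrays was in itself common: 34% of all genes tested met it.

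Each array was a dual-colour Agilent mouse array, with 3 arrays for SH-42 and 3 for SH-80, compounds known here by code name only. SH-42 replicates 1 and 2 shared slide 1, and SH-42 replicate 3 and all SH-80 arrays shared slide 2. Compound and slide can thus not be fully told apart. Per the labels, adult male C57BL/6 mice, 12 in each group, were injected in the vitreous of the right eye with 1 µM SH-42, 1 µM SH-80 or, as the control, phosphate-buffered saline. Whole retinas were collected at day 7 and 4 were pooled per tube, so each channel reports a mixture of all retinal cells. The age in weeks is not given in the sources used here. Per the labels, Cy3 (green) carried the RNA of the compound and Cy5 (red) that of the saline control on all 6 arrays, and the dyes were never exchanged. With 12 control mice and 4 retinas per pool, at most 3 control pools faced 6 arrays. By these numbers some control RNA was shared between arrays, so the 6 ratios are not independent. The p-values measure only the spread between these arrays. In such pools, fewer cells of a type and less RNA per cell cannot be told apart.

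On a dual-colour array, both RNAs of a pair are labelled with different dyes and compete for the same spot. A probe can take up or emit from 1 dye better than the other whatever the RNA, and such a gene-specific dye effect is known as a common feature of the method. It is usually cancelled by repeating the hybridization with the dyes exchanged. Here the dye and the treatment cannot be told apart in any single ratio. A dye effect that is the same on all arrays does cancel when the SH-42 arrays are set against the SH-80 arrays, or when both are compared within 1 channel. The difference in ratio is made of the same values that chose the genes, and a choice of genes alike on all arrays favours small differences, so it is given here as a description. The signal within a channel was not itself used for the choice, though each ratio is made of both channels. The ratios are given as the log2 of Cy3 relative to Cy5 (going by the labels, compound relative to control), while the deposited value table runs from Cy5 to Cy3. Higher and lower refer to Cy3 relative to Cy5 only.

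The files give no probe sequences, so none is printed. The promoters of 4 of the genes are shown because they stood 2 on each side and differ in their CG dinucleotides. Of the 9 genes, 8 have an entry in the RefSeq promoter table (build GRCm38.p6). Each sequence below is the 250 bases before the annotated start, 5′ to 3′, with every CG dinucleotide in capitals. Cadm4 is at chr7:24481773-24482022, plus strand, and Sympk, on the same chromosome, is at chr7:19024127-19024376, plus strand. Slc10a1 is at chr12:80968706-80968955, minus strand, and F10 is at chr8:13037058-13037307, plus strand.
Cadm4: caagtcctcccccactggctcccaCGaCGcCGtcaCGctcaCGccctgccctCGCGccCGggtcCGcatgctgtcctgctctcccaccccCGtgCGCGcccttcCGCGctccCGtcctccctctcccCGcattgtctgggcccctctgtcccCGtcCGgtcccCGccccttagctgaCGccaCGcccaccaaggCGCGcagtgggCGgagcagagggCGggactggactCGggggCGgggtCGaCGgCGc
Sympk: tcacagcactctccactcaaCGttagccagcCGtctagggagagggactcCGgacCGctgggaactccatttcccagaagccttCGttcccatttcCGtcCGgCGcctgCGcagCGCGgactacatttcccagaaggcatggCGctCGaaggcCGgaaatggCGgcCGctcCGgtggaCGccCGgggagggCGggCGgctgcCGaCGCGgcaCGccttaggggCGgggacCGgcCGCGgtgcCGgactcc
Slc10a1: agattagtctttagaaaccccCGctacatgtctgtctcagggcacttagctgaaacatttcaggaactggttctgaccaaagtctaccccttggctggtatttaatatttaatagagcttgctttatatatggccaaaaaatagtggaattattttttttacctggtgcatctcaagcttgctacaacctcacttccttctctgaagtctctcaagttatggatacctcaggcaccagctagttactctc
F10: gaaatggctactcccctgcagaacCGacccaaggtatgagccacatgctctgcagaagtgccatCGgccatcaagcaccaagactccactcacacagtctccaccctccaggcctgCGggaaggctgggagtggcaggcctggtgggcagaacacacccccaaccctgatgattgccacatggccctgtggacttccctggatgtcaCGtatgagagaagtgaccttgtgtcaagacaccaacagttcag
The Cadm4 and Sympk promoters hold 30 CG dinucleotides each, that of Slc10a1 holds 1 and that of F10 holds 4. The table has another start for Slc10a1 (chr12:80968080-80968329, minus strand), whose promoter holds 6 and no TATAAA. The other genes on the Cy3 side with an entry, Ankrd12 and Rsrc2, hold 39 and 18. On the Cy5 side, Tnfrsf9 holds 4 at each of its starts, whereas Pde5a holds 22, so the 2 sides are not separated by this count. Over all 32851 promoters of the table, the median was 6, and 37.8% held at least 10. TATAAA, searched on both strands, occurs in 12.4% of all these promoters and, among those of the 9 genes, in that printed for Slc10a1 alone. A match is a description of the letters and not a binding site.

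Of the 5 genes on the Cy3 side, 2 belong to the cell surface. Cadm4 encodes an immunoglobulin-type adhesion molecule of neurons and glia. Its log2 ratios were 0.75, 0.42 and 0.70 on SH-42 replicates 1 to 3 and 0.75, 0.82 and 0.72 on SH-80 replicates 1 to 3. SH-42 replicate 2 was the low array, and the others lay close together. The means were 0.62 ± 0.18 (SD, n = 3) for SH-42 and 0.76 ± 0.048 (SD, n = 3) for SH-80. Over both compounds, the normalized Cy3 signal was thus 1.62-fold brighter. Lrp12 encodes a membrane protein of the low-density lipoprotein receptor family. It had the narrowest spread of the 9 genes, with 0.54, 0.53 and 0.52 on the SH-42 arrays and 0.53, 0.50 and 0.64 on the SH-80 arrays. Its range over the 6 arrays was 0.144, whereas for all genes the median range was 0.41.

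The other 3 genes on the Cy3 side act in the nucleus. Ankrd12 encodes an ankyrin repeat protein that binds nuclear receptor coactivators and histone deacetylases. By its brighter probe the ratios were 0.56, 0.75 and 0.61 for SH-42 and 0.66, 0.54 and 0.52 for SH-80. Its other probe, also above background on all arrays, lay above 0 on all 6 as well but nearer to it, with means of 0.23 ± 0.137 (SD, n = 3) and 0.16 ± 0.0582 (SD, n = 3). Sympk encodes symplekin, a scaffold of the machinery that cleaves and polyadenylates mRNA. It had 0.41, 0.50 and 0.60 on the SH-42 arrays and 0.35, 0.34 and 0.41 on the SH-80 arrays. Rsrc2, an arginine- and serine-rich coiled-coil protein gene, had 0.57, 0.46 and 0.43 on the SH-42 arrays and 0.41, 0.43 and 0.46 on the SH-80 arrays. For all 5 genes the values of the 2 compounds overlapped. Only 13.5% of all genes tested had no overlap, and a choice of genes alike on all arrays favours overlap.

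On the Cy5 side, 2 genes are best known from liver. Slc10a1 encodes the sodium-dependent bile acid uptake transporter of hepatocytes. Its log2 ratios were -0.52, -0.94 and -1.01 on SH-42 replicates 1 to 3 and -1.12, -0.96 and -1.26 on SH-80 replicates 1 to 3. F10 encodes coagulation factor X, a plasma protease made in the liver. It had -0.59, -0.96 and -0.88 for SH-42 and -0.90, -0.79 and -1.18 for SH-80. SH-42 replicate 1 was nearest to 0 for both genes.

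The probes behind these 2 genes were among the brightest spots of the array. The raw Cy5 signal of the Slc10a1 probe was 448233 to 466346 and ranked 1st to 4th of 43020 spots, depending on the array. That of F10 was 393767 to 478330. The scanner's stated saturation value was 779611 or above in Cy5, and no spot that is not a control was saturated (0). The second probe of each gene did not share this. That of Slc10a1 had raw Cy5 signals of 60 to 73 and was well above background in neither channel on any array (0 of 6). That of F10 was not well above background in Cy3 on any array and was so in Cy5 on 2 of 6, and no fold is given. The bright F10 and Slc10a1 ratios therefore rest on 1 probe each, and what those probes bind in retina was not tested.

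**Figure D1:**
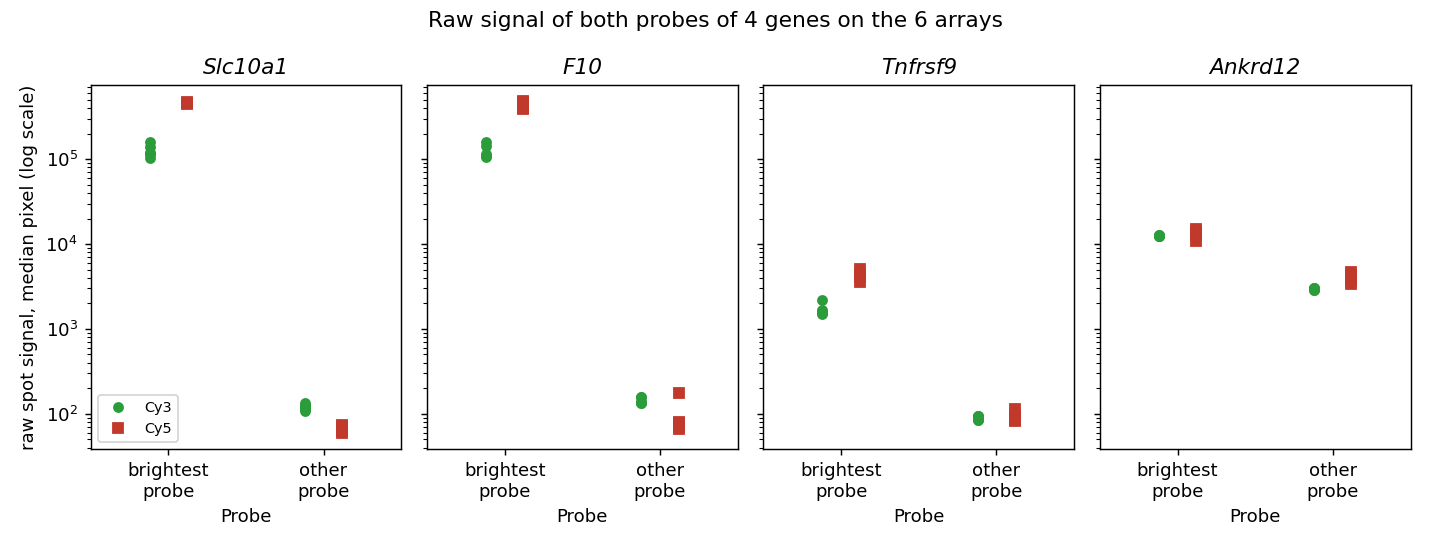
Raw spot signal (median pixel, log axis) of both probes of Slc10a1, F10, Tnfrsf9 and Ankrd12 on the 6 arrays, Cy3 as green circles and Cy5 as red squares. The brightest probes of Slc10a1 and F10 lie at 102725 or above in both channels, while their second probes lie at 175 or below.

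A bright signal went together with a low ratio beyond these 2 genes. The 50 genes with the highest mean signal include these 2. Of the 50, 36 were below 0 on all 6 arrays and 0 were above, with a median log2 ratio of -0.67. Among all genes tested, 20.9% were below 0 on all 6 arrays and 13.1% above. Over all genes tested, the medians were -0.034 for SH-42 and -0.031 for SH-80. By mean signal, Slc10a1 ranked 3rd and F10 5th of 24079. The part of signal strength in the ratio of these genes was not tested. Of 14 hepatocyte markers on the array, 9 passed the filter on dim probes, 3 were well above background in both channels on all 6 arrays, and 4, Alb, Apoa1, Apob and Fgb, were so in neither channel on any array. The brightest were Apoa2 and Tat. The summed signal of the list ranged in Cy3 from 7080 to 8822 and in Cy5 from 7392 to 9445 on the SH-42 arrays, and from 7005 to 7411 and from 7833 to 9278 on the SH-80 arrays. Its median log2 ratio ran from -0.27 to -0.035 over the arrays, and the part of liver RNA in these results was not tested.

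Tnfrsf9 encodes 4-1BB, a costimulatory receptor of activated T cells. Its ratios were -0.69, -0.68 and -0.80 on the SH-42 arrays and -0.74, -0.70 and -0.91 on the SH-80 arrays, which overlap. Its second probe was also below 0 on all 6 arrays, but Cy3 was not well above background there on any array (Cy5 on 5 of 6), and no fold is given. Of 10 T cell markers, 4 were well above background in both channels on all arrays, while Cd3d, Cd3g, Cd2 and Cd247 were so on none in either channel. Cd4 and Cd3e were the brightest of that list. Its summed signal ranged in Cy3 from 6530 to 7051 and in Cy5 from 7399 to 7809 on the SH-42 arrays, and from 6339 to 6565 and from 7323 to 7394 on the SH-80 arrays. The part of T cells in the Tnfrsf9 result was not tested.

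Pde5a encodes the phosphodiesterase that breaks down cyclic GMP in vascular smooth muscle and that is inhibited by sildenafil. It varied most among the 9 genes, with -0.60, -0.28 and -1.01 on SH-42 replicates 1 to 3 and -1.27, -1.13 and -0.95 on SH-80 replicates 1 to 3. SH-42 replicate 3 lay within the range of the SH-80 arrays, and the other 2 SH-42 arrays lay above it. Of 10 smooth muscle and pericyte markers, 6 were well above background in both channels on all arrays, with Mcam and Tagln the brightest. Their summed signal ranged in Cy3 from 18820 to 26680 and in Cy5 from 25530 to 50650 on the SH-42 arrays, and from 18170 to 18840 and from 24750 to 26470 on the SH-80 arrays. The median ratio of the list ran from -0.92 to 0.26, and its part in the Pde5a result was not tested.

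**Figure D2:**
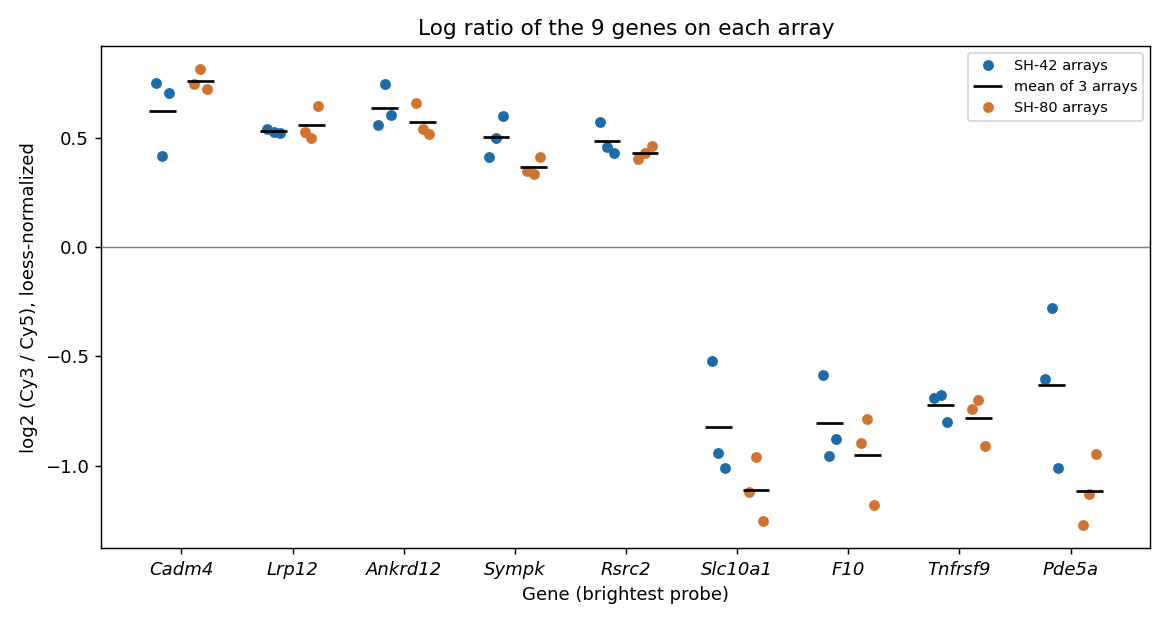
Loess-normalized log2 of Cy3 over Cy5 for the brightest probe of each of the 9 genes, with 1 point per array (blue, SH-42; orange, SH-80) and a bar at the mean of 3 arrays. Cadm4, Lrp12, Ankrd12, Sympk and Rsrc2 lie above 0 and the other 4 genes below. The points of the compounds overlap for each of the 9 genes, while 13.5% of all genes tested had no overlap.

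These 9 genes were not the extremes of the array. Ordered by the mean of both compounds, Cadm4 stood 176th from the top and Sympk 479th, whereas Slc10a1 stood 30th from the bottom and Tnfrsf9 74th. In all, 3143 genes (13.1%) were above 0 on all 6 arrays and 5034 (20.9%) below. Of these, 215 had a mean of at least 0.4 in both compounds and 132 a mean of -0.6 or less in both. For each of the 9 genes, the mean over the compounds was larger in size than the difference between them, as it was for 51.7% of all genes. A choice of genes alike on all arrays favours this, so it is a description only.

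**Figure D3:**
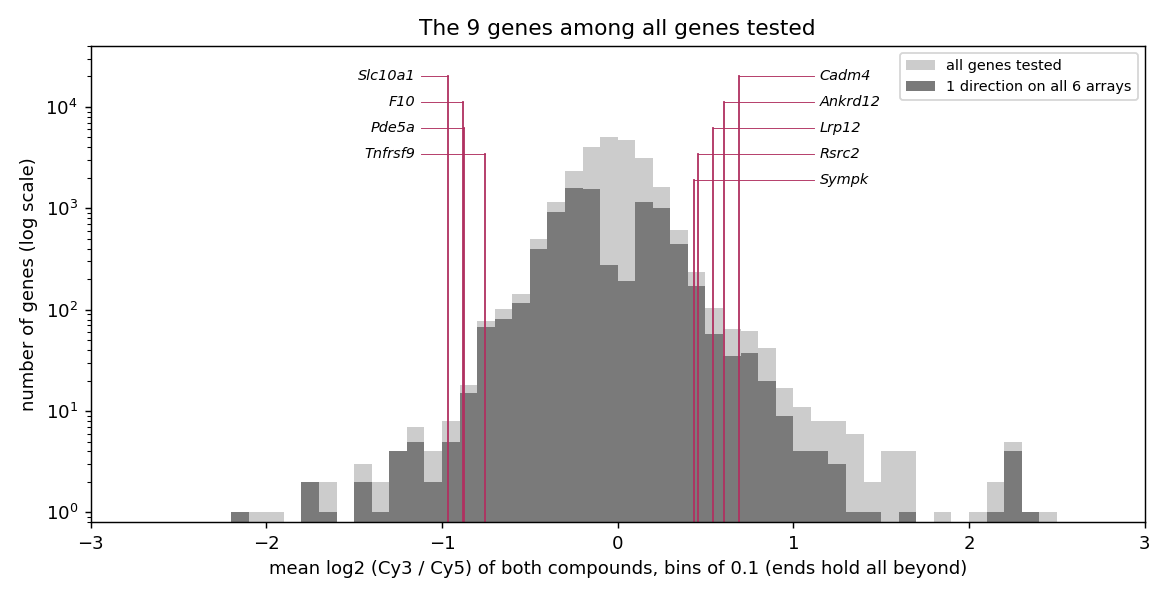
Number of genes (log axis) by the mean log2 ratio of both compounds in bins of 0.1, for all 24079 genes (light) and for those in 1 direction on all 6 arrays (dark). Lines mark the 9 genes, which lie in the tails of the distribution, with Slc10a1 lowest at -0.97 and Cadm4 highest at 0.69.

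Each channel was then followed across the arrays on its own. In the Cy3 channel, labelled with the compound, the genes on the Cy3 side ranged over the 6 arrays by 0.0421 (Ankrd12) to 0.188 (Cadm4). Ankrd12 had a normalized log2 Cy3 signal of 13.98, 13.97 and 13.96 on the SH-42 arrays and of 13.96, 13.95 and 13.94 on the SH-80 arrays. Its Cy5 signal was 13.42, 13.22 and 13.35 on the SH-42 arrays and 13.30, 13.41 and 13.42 on the SH-80 arrays. The range of the 6 arrays was thus 0.0421 in Cy3 and 0.196 in Cy5. The Cy5 range was the wider of both for 6 of the 9 genes, the exceptions being Lrp12, F10 and Tnfrsf9, and for 79.1% of all genes tested. Medians over all genes were 0.179 for Cy3 and 0.385 for Cy5.

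The widest Cy5 range of the 9 genes was that of Pde5a, at 0.774 against 0.274 in Cy3. Its Cy3 signal was 8.77, 9.04 and 8.77 on the SH-42 arrays and 8.82, 8.82 and 8.77 on the SH-80 arrays. Its Cy5 signal was 9.38, 9.32 and 9.78 on the SH-42 arrays and 10.10, 9.95 and 9.72 on the SH-80 arrays. The spread of its ratio therefore lay mostly in the channel labelled control. For Tnfrsf9, SH-42 replicate 1 was high in both channels, at 11.42 in Cy3 and 12.11 in Cy5, where the other arrays lay between 10.88 and 10.97 in Cy3 and between 11.65 and 11.79 in Cy5. Its ratio on that array was -0.69, within the range of the others.

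**Figure D4:**
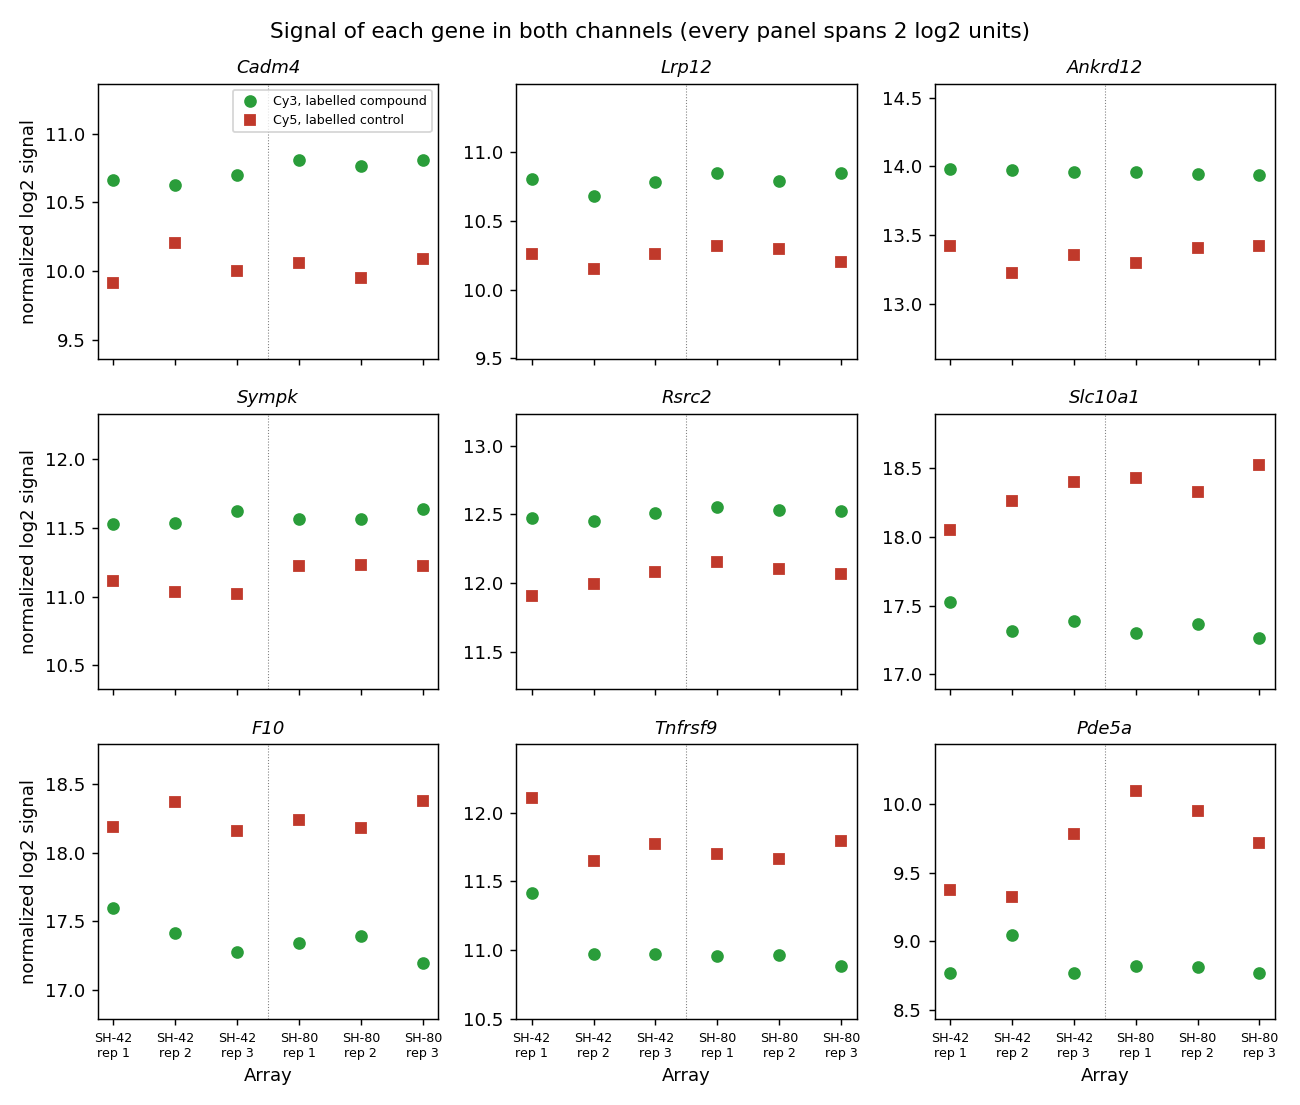
Normalized log2 signal of the 9 genes on each array, Cy3 (labelled compound) as green circles and Cy5 (labelled control) as red squares, in panels that each span 2 log2 units. The channels stay apart on every array for all 9 genes, and for Pde5a the Cy5 points range from 9.32 to 10.10 while the Cy3 points range from 8.77 to 9.04.

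The compounds were then set against each other, where a common dye effect cancels. Over all genes, 0 of 24079 (0%) passed for SH-42 minus SH-80 (limma, Benjamini-Hochberg), and 942 (3.91%) had an unadjusted p under 0.05. The largest difference among the 9 genes was that of Pde5a, whose ratio was 0.49 ± 0.197 (SE, n = 3 arrays each) nearer to 0 for SH-42 (95% interval 0.0095 to 0.96). The adjusted p of Pde5a was 0.691 (limma). Since the ratios also chose the 9 genes, this p and their intervals here and below are a description and no test. On the arrays of slide 2 alone, which holds SH-42 replicate 3 and all SH-80 arrays, that difference was 0.11, the lowest of all alternatives run. It was 0.31 without SH-42 replicate 2 and 0.63 with the processed signals, and it was highest, at 0.68, without SH-42 replicate 3. Slc10a1 differed by 0.29 ± 0.155 (interval -0.087 to 0.66), and by 0.14 without SH-42 replicate 1, 0.10 on slide 2 alone and -0.075 with median centring in place of loess.

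The remaining 7 genes differed by less. The intervals allow a difference of Lrp12 between -0.21 and 0.16 (estimate -0.027), of Rsrc2 between -0.13 and 0.24 (0.055) and of Tnfrsf9 between -0.16 and 0.28 (0.060). For Ankrd12 the interval was -0.15 to 0.28 (0.064), for Sympk -0.060 to 0.34 (0.14), for Cadm4 -0.40 to 0.12 (-0.14) and for F10 -0.21 to 0.50 (0.15). These intervals do not show that the compounds act alike.

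The same comparison within a channel gave 0 genes for Cy3 (0%, with 2230 or 9.26% at an unadjusted p under 0.05) and 0 for Cy5 (0%, with 868 or 3.6%), again by limma with Benjamini-Hochberg. Without SH-42 replicate 3 the Cy3 count was 822, none of them among the 9 genes. In Cy3, Cadm4 was lower on the SH-42 arrays, at 10.67, 10.62 and 10.70, than on the SH-80 arrays, at 10.81, 10.76 and 10.81. These do not overlap. The difference was -0.13 ± 0.036 (SE, n = 3 arrays each), with an adjusted p of 0.52 (limma). The Cy3 values of the compounds did not overlap for 4 of the 9 genes, and for 16.4% of all genes. The other 3 were Ankrd12, with 13.96 to 13.98 for SH-42 and 13.94 to 13.96 for SH-80, Rsrc2, with 12.45 to 12.51 and 12.53 to 12.56, and Tnfrsf9, with 10.97 to 11.42 and 10.88 to 10.96. Their adjusted p was 0.733, 0.527 and 0.559 (limma). In Cy5, the difference of Pde5a was -0.43 ± 0.159 (limma adjusted p = 0.701), and Sympk, whose Cy5 values did not overlap, differed by -0.17 ± 0.0663 (limma adjusted p = 0.701). Sympk was the only 1 of the 9 genes without overlap in Cy5, where 13.3% of all genes had none.

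**Figure D5:**
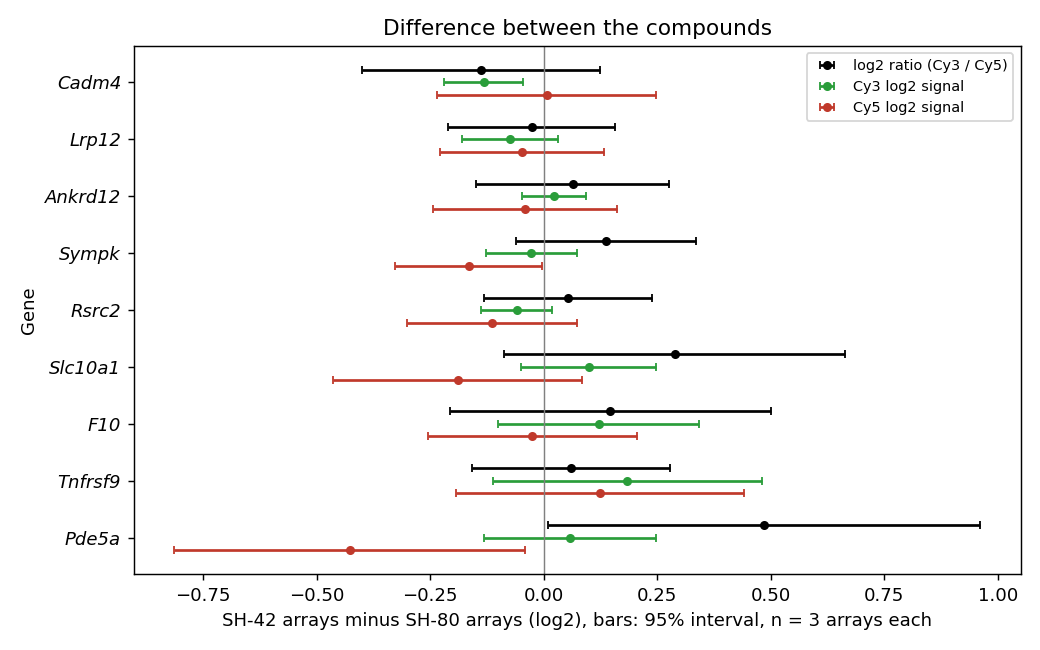
SH-42 arrays minus SH-80 arrays on the log2 scale for each of the 9 genes, in the ratio (black), the Cy3 signal (green) and the Cy5 signal (red), with 95% intervals from limma and n = 3 arrays each. For Pde5a the ratio (0.49) and the Cy5 signal (-0.43) differ most, while its Cy3 signal differs by 0.058.

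That all 9 genes stood on their side on every array depended in part on how the dyes were balanced. With loess correction, which is meant to remove the trend of the ratio with signal strength, all 9 did. The brightest genes, Slc10a1 and F10 among them, still lay low after it. Of the 50 of highest mean signal, 36 were below 0 on all 6 arrays, against 20.9% of all genes. All 9 likewise stood on their side with the processed signals of the scanner software and without background correction. They also did in the deposited value table, turned to Cy3 over Cy5 and centred. With each array centred on the median of its spots other than controls and no loess, the 4 genes on the Cy5 side remained below 0 on all arrays, but each of the 5 genes on the Cy3 side was above 0 on only 5. The exception was SH-42 replicate 2 for all 5 genes, with Cadm4 at -0.23 and Rsrc2 at -0.39. Over the 24079 genes tested, which leave out dim probes, the median was then -0.25 for SH-42 and -0.15 for SH-80. Taken relative to each array's median over these tested genes, all 9 genes kept their side on all 6 arrays, with Rsrc2 as near as 0.032. That centring also moved Slc10a1 to -1.69 for SH-42 and -1.62 for SH-80, and F10 to -1.67 and -1.45.

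By the nearest pattern over the 6 arrays, Slc10a1 was closest to Kctd14 (Euclidean distance 0.189 on the log2 scale, of 15922 genes with a symbol), Elk1 (0.337) and Fam177a2 (0.379). By mean signal, Elk1 ranked 1st, Kctd14 2nd and Fam177a2 18th of all genes tested. Their other probes lay nearer to 0. The mean ratio over the 6 arrays was 0.16 for the other probe of Elk1, 0.08 and -0.14 for those of Kctd14 and -0.02 for that of Fam177a2, all of them above background on all 6 arrays. For Cadm4 the nearest were Depdc7 (0.401), Sucnr1 (0.412) and Ces5a (0.422), whose ratios ranged more widely than those of Cadm4, as from 0.14 to 0.94 for Depdc7. By mean signal these 3 ranked 21456th, 21255th and 21062nd, whereas Cadm4 ranked 8795th, and the other probe of Ces5a lay at 0.21. Spots of the same probe on 1 array, of which 399 probes have 10, differed by a median SD of 0.0332 to 0.0847. The SD of the 9 genes over the 6 arrays was 0.0508 for Lrp12, 0.0586 for Rsrc2 and 0.0858 to 0.368 for the others. The median SD over all genes was 0.15, and a choice of genes alike on all arrays favours a small SD.

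Few genes of the same families passed, and those that did lay on both sides. Against control, 145 of all genes passed for SH-42 (0.602% of those tested, made up of 0.0581% higher and 0.544% lower in Cy3) and 3533 for SH-80 (14.7%, made up of 4.61% higher and 10.1% lower), by limma with Benjamini-Hochberg. These counts rest on single arrays. Leaving out SH-42 replicate 1 gave 442 genes for SH-42 and 9345 for SH-80. Leaving out SH-42 replicate 2 gave 1 and 2267. With SH-42 replicate 3 left out, 0 passed for SH-42 (limma, 3038 unadjusted). Dropping a single SH-80 array, whichever it was, left 0 for either compound (limma, 4308 to 5930 unadjusted). Of the SH-80 genes, 31.5% were higher in Cy3, and 14.9% in the deposited value table. In the 9 lists of related genes, none passed for SH-42 (0 in each). Around Cadm4, 0 of 10 adhesion genes of the Cadm and nectin group passed for SH-80, with Cadm3, a neuronal relative, at 0.80 ± 0.132 for SH-42 and 0.45 ± 0.132 for SH-80 (SE, limma adjusted p = 0.0754 and 0.0672). Its other probe lay at 0.23. The list medians were -0.014 for SH-42 and 0.024 for SH-80. In the receptor family of Lrp12, 1 of 12 passed for SH-80 (medians 0.070 and 0.19). It was Lrp5, a Wnt coreceptor, at -0.22 for SH-80 and -0.24 for SH-42 (SE 0.0513, limma adjusted p = 0.0417 and 0.115). The related genes named below as passing for SH-80 also lay on the same side of 0 for SH-42. Their SH-42 values included -0.26 for Ankrd11, 0.20 for Srsf3, 0.32 for Pde6h and -0.087 for Nos3.

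Of 10 ankyrin repeat cofactors and their chromatin partners, 1 was higher and 1 lower for SH-80 (medians 0.020 and -0.12). Ankrd11, the closest relative of Ankrd12, passed at -0.42 ± 0.0627 (limma adjusted p = 0.0264), opposite to Ankrd12, but its other probe lay at 0.02. Ankrd17 passed at 0.27 ± 0.0565. Of 18 genes of mRNA 3′ end processing, the group of Sympk (medians 0.018 and 0.0013), 1 was lower, the phosphatase gene Ssu72 at -0.31 ± 0.0502 (limma adjusted p = 0.0276), and none was higher (0). Of 19 splicing proteins rich in arginine and serine (medians 0.042 and -0.016), 1 was higher, Srsf3 at 0.23 ± 0.0559, whose other probes lay at 0.18 and -0.25.

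Around Slc10a1, 0 of 10 bile acid transporters passed (medians 0.039 and 0.037), with Slc51a at 0.40 ± 0.129 for SH-42 (limma adjusted p = 0.162). Around F10, 0 of 18 coagulation genes passed (medians -0.22 and 0.046). F9, another liver-made factor, lay at -0.44 ± 0.131 for SH-42 and -0.45 ± 0.131 for SH-80 (limma adjusted p = 0.15 and 0.0659). In the receptor superfamily of Tnfrsf9, 1 of 19 passed (medians -0.14 and 0.048), Tnfrsf4, the T cell receptor OX40, at -0.38 ± 0.0661 for SH-80 (limma adjusted p = 0.0286). Of 23 genes of cyclic GMP turnover (medians 0.078 and -0.096), 1 was higher for SH-80, the cone phosphodiesterase subunit Pde6h at 0.38 ± 0.0589 (0.37 by its other probe). The other that passed was lower, the endothelial nitric oxide synthase Nos3 at -0.29 ± 0.0685 (0.01 by its other probe). The share passing for SH-80 was below the 14.7% of all genes in each list except that of Ankrd12, where 2 of 10 passed. None of these calls held with slide or replicate number as a block, where 0 genes passed by limma (2988 and 7155 unadjusted).

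The arrays were labelled retina, and all 10 rod markers were well above background in both channels on all arrays, Rom1 and Pde6g being the brightest. The share of spots above background ran from 58.3% to 63.1% for Cy3, and for Cy5 from 70.9% to 76.7%. SH-42 replicate 1 correlated with the other 5 arrays at r from -0.16 to 0.163 over the ratios of all genes, which are not independent replicates, and the other 10 pairs at 0.471 to 0.866. The cell type lists moved between arrays, with median ratios from -0.22 to 0.53 for rods, -1.08 to 0.14 for Müller glia (brightest Clu and Apoe) and -0.58 to 3.02 for lens (Cryaa and Crygc). They ran from -0.24 to 0.034 for T cells, -0.81 to 0.24 for red blood cells (Hba-a1 and Hbb-bt) and -2.03 to 0.44 for skeletal muscle (Pvalb and Tnnc2). Their part in the results of the 9 genes was not tested. With single arrays left out, the SH-42 mean of Cadm4 ran from 0.56 to 0.73 and that of Slc10a1 from -0.98 to -0.73. The sign of these means could not change, since the 9 genes were chosen to lie on 1 side of 0 on every array.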

How the data were processed

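The deposited scanner files hold, per the file headers, spot and background intensity in both channels, processed intensity, and a log10 ratio of Cy5 over Cy3. Agilent Feature Extraction was version 11.0.1.1 per the file headers and 9.3.2.1 per the submitters' processing notes. The deposited value table holds, from its values, a log2 ratio of Cy5 over Cy3 (r of 0.9995 to 0.9998 with the processed signals). Its column medians were -0.0531, -0.0606 and -0.0612 for SH-42 and -0.0611, -0.0464 and -0.0754 for SH-80, and its centring is not given in the sources used here. As an alternative it was turned to Cy3 over Cy5 and median-centred.

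Median signals were corrected by normexp (offset 50), loess-normalized within arrays and, per channel, Aquantile-normalized between arrays (limma 3.58.1, R 4.3.3). Of 39429 probes, 26055 matched a symbol through RefSeq accessions. A probe was kept if 3 or more arrays had it well above background in Cy3 or Cy5 (9972 removed), and the brightest stood for its gene. Control spots were left out, and 1 gene unmeasured in a group was dropped. The 3 arrays per compound limit the precision. A model over the 6 arrays was fitted with lmFit and eBayes. The p-values, all two-sided, were adjusted by Benjamini-Hochberg over 24079 genes with a threshold of 0.05. The test of SH-42 minus SH-80 was also run on simulated data. The simulated arrays were independent, with no shared control RNA or slide, so that run does not show how the test behaves on these arrays. The 9 genes and all lists were chosen with earlier results of these data known. Named genes are the 9, up to 2 of each related list by smallest p, the 3 nearest to Cadm4 and Slc10a1, and the 2 brightest of each marker list, except 1 list that is not reported here. Plots used matplotlib 3.10.9.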

Additional observations from a re-analysis of the deposited data

How the results depend on the processing

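The sign of the 9 genes against control, as means per compound, was kept under every alternative run. For part of these runs it could not change. Leaving out an array cannot turn a gene chosen to lie on 1 side of 0 on every array. The strict probe filter and the replicate block left these means as they were. On the Cy5 side the values ran from -0.44 (Pde5a, SH-42) downward. On the Cy3 side some means with median centring were smaller than their SE, so their side of 0 is uncertain there. For SH-42 these were Rsrc2 at 0.0007 (SE 0.134), Sympk at 0.070 (SE 0.127) and Ankrd12 at 0.072 (SE 0.111). For SH-80 it was Sympk at 0.097 (SE 0.127). The count of genes passing against control did not hold. For SH-42 (145) it was 3221 with processed signals, 3188 without background correction, 9037 with median centring, 4325 with the deposited value table, and 0 with slide as a fixed block. For SH-80 (3533) it was 2101 with the strict probe filter (18233 genes tested), 5569 with the deposited value table, and 0 with slide as a fixed block (limma, 2988 unadjusted). With the replicate block it was 0 for each (limma, 4209 and 7155 unadjusted). Leaving out single arrays gave 0 to 442 for SH-42 and 0 to 9345 for SH-80, both highest without SH-42 replicate 1. It gave 0 for SH-42 minus SH-80 and for its Cy5 signal (limma), and 0 to 822 for Cy3, the 822 without SH-42 replicate 3, by limma. The percentage higher in Cy3 was 9.66 for SH-42 and 31.5 for SH-80, against 31.3 and 23.8 with processed signals, 36.5 and 31.4 without background correction, 19.3 and 34.3 with median centring and 18.1 and 14.9 with the value table. The cause of these changes was not tested.

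Differences between the compounds near 0 changed sign. In the ratio, Lrp12 lay at 0.057 with processed signals, 0.036 without background correction and 0.027 with the value table. With median centring, Ankrd12 lay at -0.18, Sympk at -0.027, Rsrc2 at -0.14, Slc10a1 at -0.075, F10 at -0.22 and Tnfrsf9 at -0.11. With slide as a fixed block or slide 2 alone (added after seeing the data), Rsrc2 lay at -0.0009 and Tnfrsf9 at -0.018. In Cy3, Sympk lay at 0.022 with processed signals and Pde5a at -0.0035 without background correction. With median centring Ankrd12 lay at -0.10, Slc10a1 at -0.083 and F10 at -0.061, and with the slide block Sympk lay at 0.033, F10 at -0.030 and Pde5a at -0.035. In Cy5, Cadm4 lay at -0.043 and F10 at 0.052 with processed signals, and Cadm4 at -0.015 without background correction. With median centring Lrp12 lay at 0.019, Ankrd12 at 0.082 and F10 at 0.16, and with the slide block Cadm4 lay at -0.035. Leaving out single arrays, the ratio of Lrp12 ran from -0.055 to 0.017 and that of Tnfrsf9 from -0.0029 to 0.10, and Cy3 of Pde5a from -0.033 to 0.10. Cy5 ran from -0.076 to 0.068 for Cadm4, -0.085 to 0.013 for Ankrd12, -0.091 to 0.032 for F10 and -0.0085 to 0.22 for Tnfrsf9. Over all alternatives the adjusted p (limma) was 0.441 to 1 for the ratio, 0.0808 to 1 for Cy3 and 0.4 to 1 for Cy5. For the ratio these values are a description and no test, since the ratios chose the 9 genes. Deviations of same-numbered arrays correlated at -0.153, -0.431 and 0.181, so the replicate numbers were not taken as pairs, and the replicate block turned the sign of none of the 9 genes.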
